A study of Mus musculus with 47 samples.

Results

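The genes described here are the splicing factor genes of the Srsf, Sf3a, Sf3b, Snrp and Hnrnp families, taken as every gene whose annotated symbol starts with one of these names, with 1 probe set per gene, the one with the highest mean over all 47 arrays. The rule found 47 of the 17097 genes that the array could name. Of these, 46 passed the filter on low values, a mean of at least 5.80 on the log2 scale. Srsf12, an SR-related gene with a mean of 4.41, fell under the filter and was not tested. By the role of their products, the 46 tested genes comprised 8 SR protein genes, 8 genes of the Sm core, 4 genes of other U1 or U2 snRNP proteins, 3 SF3a genes, 6 SF3b genes and 17 hnRNP genes.

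Introns are removed from new transcripts by the spliceosome, which is built from small nuclear ribonucleoproteins (snRNPs). The Sm proteins form a ring around each spliceosomal small nuclear RNA except U6, and the SF3a and SF3b complexes belong to the U2 snRNP, which selects the branch point. SR proteins bind mostly exons and promote the choice of nearby splice sites, whereas hnRNP proteins coat nascent transcripts and often repress splice sites, and many SR and hnRNP genes make several transcript forms of their own. In satellite cells, the stem cells that lie beside muscle fibres, exit from quiescence is accompanied by a general rise of RNA and protein production.

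RNA came from muscle stem cells of female wild type C57B6/J mice aged 15 weeks that had free access to a high-fat diet or to its control diet for 7 weeks, from 8 weeks of age. Mice were collected at 6 zeitgeber times from ZT0, by convention lights on, to ZT20 in steps of 4 h. There were 24 control and 23 high-fat mice with 1 array each, in 12 groups of 4 mice except high-fat ZT16, which held 3. The mice of a day all belonged to a single time, so that time of day and collection day cannot be told apart within a diet, whereas diets were compared at a common time. That both diets of a time shared their collection day is read from the series' design text, which does not state it outright, and the diet comparisons and the block on collection day rest on this reading. Isolation of the cells is not given in the sources used here. Values are deposited log2 expression values from RMA (robust multi-array averaging), which sets all arrays to a common overall level, so that each difference is relative to the bulk of genes. Levels of different genes are not compared, since probe sets differ in their response.

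Marker genes were set against the filter at 5.80, and the presence or absence of a cell type was not read from them. Above it lay Pax7, the defining transcription factor of satellite cells, with group means of 10.7 to 11.14, and Myf5 with 10.41 to 10.81. Ptprc, which marks leukocytes (3.74 to 4.06), and Pdgfra, which marks fibro-adipogenic cells (4.26 to 4.44), lay below it. Other genes of the same lists lay above it, with Cd68 of the immune list at 7.95 to 9.05 and Dpt, Col3a1, Dcn and Col1a1 of the fibro-adipogenic list at 11.05 to 11.63, 11.02 to 11.48, 9.85 to 10.77 and 8.06 to 10.43. So did Tek of the endothelial list (8.89 to 9.53) and Acta2 of smooth muscle and pericytes (10.54 to 11.22). Control ZT20 replicate 2 stood apart from its group, with a mean of 8.12 over 7 endothelial genes where the highest mean of any mouse in the other 11 groups was 6.71. Without it, the counts of splicing factor genes below changed by at most 1 in each comparison, with Snrpb at ZT12 (adjusted p = 0.0504), Sf3b1 on average (0.0543) and Srsf6 in the change over the day (0.071) losing their calls. Within groups the median SD of the 46 genes was 0.15 on the log2 scale, against 0.19 over all 10258 genes tested.

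At ZT16, 5 of the 8 genes of the Sm core were lower in high-fat than in control mice. In 7 of the 8 Sm genes the high-fat mean was the lower one, the median difference was -0.38 on the log2 scale against -0.02 over all genes tested, and those 5 passed the test (limma, Benjamini-Hochberg adjusted p under 0.05 over all genes). They were Snrpg, Snrpf, Snrpb, Snrpd3 and Snrpe. Over all splicing factor genes, 11 of 46 were called lower and 2 higher at ZT16, 13 in all. Among all genes tested, 13.3% were called at ZT16, 7.13% lower and 6.13% higher. In bulk RNA, fewer cells of a type and less RNA per cell cannot be told apart.

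Snrpg, which encodes the smallest Sm ring protein, read 10.34, 10.42, 10.51 and 10.43 in the 4 control mice at ZT16 and 9.97, 10.22 and 9.93 in the 3 high-fat mice. All high-fat mice lay below all control mice. The difference was -0.38 ± 0.08 (SE from limma, as for every value after ± below unless SD is named; adjusted p = 0.00168). Snrpb, which encodes SmB, read 10.94, 10.95, 11.04 and 10.98 on the control diet and 10.7, 10.67 and 10.74 on the high-fat diet. Here too the groups did not overlap, and the difference was -0.28 ± 0.07 (adjusted p = 0.00658).

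Snrpf, the gene of the SmF protein, measured 7.91, 8.03, 8.32 and 8.33 in control mice and 7.33, 7.7 and 7.68 in high-fat mice, a difference of -0.58 ± 0.14 (adjusted p = 0.00638). Snrpd3, the gene of SmD3, measured 10.39, 10.62, 10.46 and 10.53 against 10.02, 10.21 and 9.85, a difference of -0.47 ± 0.12 (adjusted p = 0.0067). Neither gene's groups overlapped. Snrpe, the gene of SmE, differed by -0.25 ± 0.09 (adjusted p = 0.048), and its groups touched, with the lowest control mouse at 10.5 and the highest high-fat mouse at 10.53. This call was lost in 24 of the 47 runs that left out 1 mouse (adjusted p from 0.026 to 0.215), under cyclic loess (0.0746), without the filter (0.0584), without the intensity trend (0.061) and with the replicate block (0.0546). Snrpd1 had a difference of -0.60 ± 0.28 (adjusted p = 0.139) and Snrpd2 of -0.37 ± 0.16 (adjusted p = 0.107), and neither passed the test. Snrpn, a paralog of Snrpb with an imprinted locus, was the exception in sign, at 0.23 ± 0.12 (adjusted p = 0.217). The probe sets of Snrpb, Snrpd1, Snrpe and Snrpg, and those of Srsf1, Srsf2 and Srsf6 below, are of the array maker's type that can match more than 1 transcript. Related copies of these genes may therefore add to their signal.

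**Figure D1:**
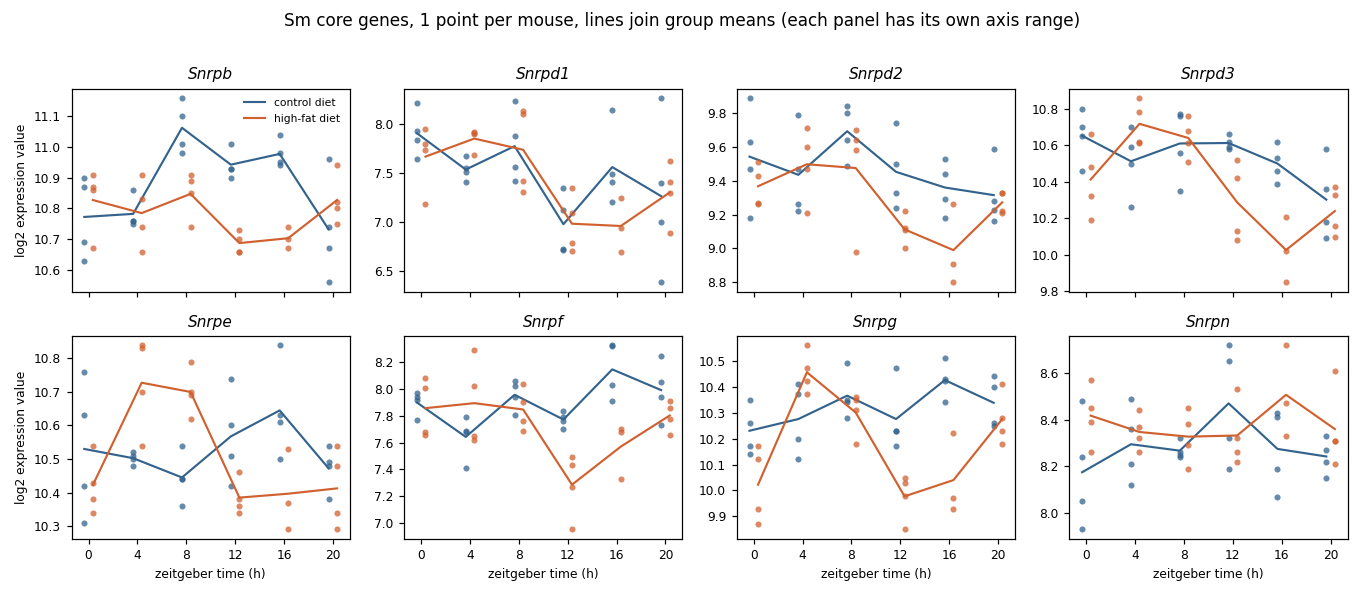
Log2 expression value (y axis, own range in each panel) of the 8 Sm core genes against zeitgeber time in hours (x axis), with 1 point per mouse and lines joining the group means, for the control diet (blue) and the high-fat diet (orange). At ZT12 and ZT16 the orange points of Snrpb, Snrpf and Snrpg lie below the blue ones, while at ZT4 the high-fat means of all 8 genes are at or above the control means.

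The upstream sequences of 4 of these Sm genes are shown with those of Sf3a3 and Srsf10, which were also called lower at ZT16. Each is the 150 bases that end just before the annotated gene start, from RefSeq on build GRCm38.p6, 5′ to 3′ on the gene's strand. Capitals mark matches, on either strand, to any of 6 motifs that were searched: the E-box CACGTG bound by clock proteins, the D-box TTATGTAA, the cAMP response element TGACGTCA, the ETS core CCGGAAG, the YY1 core AAGATGGC and the NRF1 core GCGCATGC.
Snrpg: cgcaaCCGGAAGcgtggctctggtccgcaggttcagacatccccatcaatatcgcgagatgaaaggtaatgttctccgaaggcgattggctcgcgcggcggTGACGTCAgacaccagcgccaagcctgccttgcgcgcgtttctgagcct
Snrpd3: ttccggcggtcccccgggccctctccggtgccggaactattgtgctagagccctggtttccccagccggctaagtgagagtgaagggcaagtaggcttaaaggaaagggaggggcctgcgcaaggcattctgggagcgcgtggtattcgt
Snrpe: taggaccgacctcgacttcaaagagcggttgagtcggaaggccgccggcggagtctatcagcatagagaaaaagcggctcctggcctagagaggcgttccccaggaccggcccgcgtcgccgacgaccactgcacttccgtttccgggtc
Snrpf: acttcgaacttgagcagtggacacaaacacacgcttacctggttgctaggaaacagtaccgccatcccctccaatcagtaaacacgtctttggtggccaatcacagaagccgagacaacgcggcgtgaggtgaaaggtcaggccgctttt
Sf3a3: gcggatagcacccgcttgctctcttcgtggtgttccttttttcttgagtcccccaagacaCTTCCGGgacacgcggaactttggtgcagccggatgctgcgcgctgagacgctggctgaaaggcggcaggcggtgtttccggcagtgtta
Srsf10: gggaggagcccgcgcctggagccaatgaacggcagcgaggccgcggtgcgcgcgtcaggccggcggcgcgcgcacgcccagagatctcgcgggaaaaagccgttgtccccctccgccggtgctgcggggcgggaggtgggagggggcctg
The window of Snrpg is chr6:86371390-86371539 on the plus strand. That of Snrpd3 is chr10:75517892-75518041 on the plus strand, that of Snrpe is chr1:133610281-133610430 on the minus strand and that of Snrpf is chr10:93589659-93589808 on the minus strand. The windows of Sf3a3 and Srsf10 are chr4:124714711-124714860 and chr4:135855921-135856070, both on the plus strand.

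In these stretches Snrpg held an ETS core that starts at position -145 from the gene start and a cAMP response element at -49, and Sf3a3 held an ETS core at -90. The upstream stretches of Snrpd3, Snrpe, Snrpf and Srsf10 held none of the 6 motifs, and Snrpe had a pair of ETS cores just after its start, at positions 4 and 7. Over the full windows of 300 bases, 250 of them before the start, 41 of the 47 genes were in the RefSeq promoter table, with 55 windows because some genes have several starts. The ETS core was in 16 of the 55 windows (29.1%), against 8.86% of all 32851 windows, and by gene in 13 of 41 (31.7%) against 9.93% of all genes. The E-box was in 6 of 55 windows (10.9%) against 7.15%, in Hnrnpa3, Hnrnpd, Hnrnph2, Hnrnpm and Snrpa. The other motifs were in 0 windows (D-box, against 0.938%), 2 windows (cAMP response element, 3.64% against 1.79%), 2 windows (YY1, 3.64% against 2.75%) and 2 windows (NRF1, 3.64% against 2.71%). A match is a run of letters and not a measured binding site. The shares cover splicing factor genes called at ZT16 and those not called, against all genes of the promoter table, tested or not. A link of any motif to the ZT16 differences was not tested.

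Among SR protein genes at ZT16, Srsf10 and Srsf1 were lower on the high-fat diet and Srsf2 was higher. Srsf10, whose product represses splicing when dephosphorylated, read 10.61, 10.64, 10.67 and 10.55 in control mice and 10.23, 10.27 and 10.13 in high-fat mice. The groups lay clearly apart, and the difference of -0.41 ± 0.07 (adjusted p = 8.67e-05) had the smallest p of all splicing factor genes at this time. Srsf1, the gene of the founding SR protein ASF/SF2, read 8.71, 8.85, 9.12 and 9.22 against 8.6, 8.31 and 8.62, a difference of -0.46 ± 0.13 (adjusted p = 0.0138). Srsf2, the gene of SC35, read 11.01, 11.15, 10.8 and 10.79 against 11.22, 11.23 and 11.18, a difference of 0.27 ± 0.08 (adjusted p = 0.0223). For both genes the groups did not overlap, but 2 of the 4 control mice of Srsf2 lay close to the high-fat mice.

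In the U2 snRNP, Sf3b4, whose product touches the pre-mRNA near the branch point, read 7.16, 6.73, 7.35 and 7.08 at ZT16 on the control diet and 6.77, 6.46 and 6.32 on the high-fat diet. The lowest control mouse lay just under the highest high-fat mouse, and the difference was -0.56 ± 0.14 (adjusted p = 0.00638). Sf3a3, an SF3a subunit gene, read 6.8, 6.72, 6.98 and 6.96 against 6.53, 6.58 and 6.3, a difference of -0.39 ± 0.13 (adjusted p = 0.0464). Sf3a2 had a difference of -0.56 ± 0.21 (adjusted p = 0.0675) and did not pass the test. Sf3b1, the large SF3b subunit that is often mutated in myelodysplasia, had a difference of -0.03 at ZT16 (adjusted p = 0.565).

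Of the 17 hnRNP genes, Hnrnpm and Hnrnpc were lower and Hnrnpl was higher at ZT16. Hnrnpm, a regulator of exon skipping, read 9.15, 9, 9.53 and 9.15 against 8.83, 8.79 and 8.78, a difference of -0.41 ± 0.12 (adjusted p = 0.0221) with no overlap. Hnrnpc, whose product binds uridine tracts of nascent transcripts, differed by -0.17 ± 0.06 (adjusted p = 0.0392). Hnrnpl, which binds CA repeats, read 10.54, 10.58, 10.66 and 10.46 against 10.72, 10.77 and 10.66, a difference of 0.16 ± 0.05 (adjusted p = 0.0403). The other 14 hnRNP genes did not pass the test at ZT16, and the median difference of the family was -0.08.

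Counted without a test, 12 of the 46 genes (Hnrnpa2b1, Hnrnpm, Hnrnpul2, Sf3a3, Sf3b3, Snrpb, Snrpd3, Snrpf, Snrpg, Srsf1, Srsf10 and Srsf4) had every high-fat mouse below every control mouse at ZT16, where 15.8% of all genes did. The number called rested on few mice: it was 5 when high-fat ZT16 replicate 3 was left out and 8 when ZT16 control replicate 3 or 4 or high-fat replicate 1 or 2 was. Srsf10, Snrpg and Snrpb were called whichever mouse was left out, Sf3b4 and Snrpd3 lost the call only without high-fat replicate 3 (adjusted p = 0.0706 and 0.0762) and Snrpf only without high-fat replicate 1 (adjusted p = 0.0744). Srsf1 lost it without control replicate 4 (0.0696) or high-fat replicate 2 (0.101), and Hnrnpm lost it without control replicate 3 or any high-fat mouse (up to 0.11). Srsf2 lost it without control replicate 3 or 4 or any high-fat mouse (up to 0.0987), Hnrnpc without control replicate 1, 3 or 4 or high-fat replicate 2 or 3 (up to 0.147), and Hnrnpl and Sf3a3 without 6 and 7 single mice, nearly all of ZT16 (up to 0.156 and 0.235).

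Other probe sets of the same gene bear on these calls, since 33 of the 46 genes had more than 1. At ZT16 the second probe set had the sign of the first in 19 of 33 genes, and the correlation of the pair over the 47 arrays had a median of 0.44 (from -0.22 to 0.92). With the second probe set in place of the first, and the first kept where there was no other, 7 genes were called at ZT16. The Sm median was then -0.30 with 6 of 8 genes lower, but Snrpd1, Snrpd2, Snrpe and Snrpf had no other probe set. The second probe sets of the other Sm genes gave -0.20 (Snrpb), 0.41 (Snrpd3), -0.35 (Snrpg) and 0.22 (Snrpn). For Srsf10 the 4 probe sets gave -0.41, -0.58, -0.51 and 0.06, for Srsf1 the 4 gave -0.46, -0.47, -0.27 and 0.01, for Snrpg both gave -0.38 and -0.35, and for Snrpb -0.28 and -0.20. With the second probe set the calls of Snrpg (adjusted p = 0.121) and Snrpb (0.326) were lost all the same. So were those of Sf3b4, at -0.17 in place of -0.56 (0.331), Sf3a3, at -0.31 in place of -0.39 (0.408), and Hnrnpl, at 0.03 in place of 0.16 (0.925). Hnrnpc gave -0.17, -0.41 and 0.60 in its 3 probe sets, and the second was not called (0.215). Snrpd3 gave -0.47, 0.41 and -0.13, so its direction depends on the probe set. The difference of Srsf2 was 0.27 in the first probe set, and the other 4 gave -0.07, -0.39, -0.39 and 0.02. With the mean of all probe sets Srsf1 (-0.30, adjusted p = 0.113), Snrpb (-0.24, 0.0631), Snrpd3 (-0.06, 0.848), Sf3a3 (-0.35, 0.0541) and Hnrnpl (0.09, 0.477) were not called. Hnrnpc and Srsf2 changed sign there. Hnrnpc was also lost under cyclic loess (0.0636) and without the intensity trend (0.0741). Hnrnpl was lost without that trend (0.0724) and with the replicate block (0.0602), and Sf3a3 without the filter (0.0553) and with the block (0.0702).

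**Figure D2:**
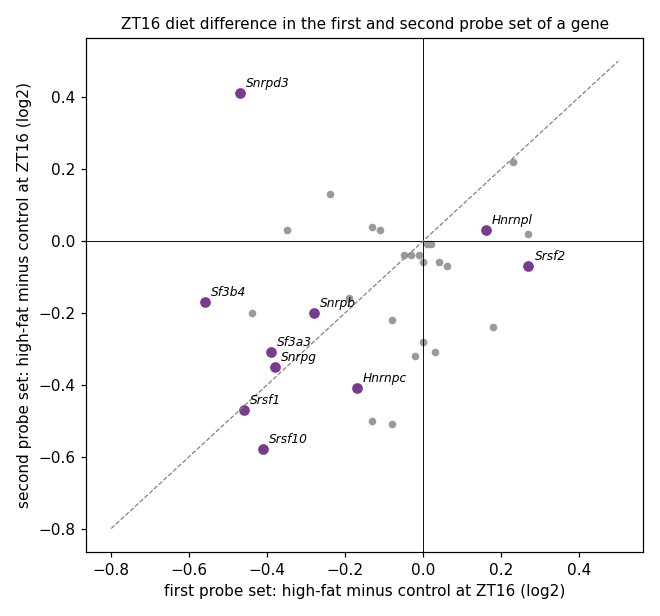
High-fat minus control difference at ZT16 (log2) in the second-brightest probe set of a gene (y axis) against that in the brightest (x axis), 1 point per gene with more than 1 probe set. Purple points with names are genes called at ZT16 with the brightest probe set, and the dashed line marks equal values. Srsf1 and Snrpg lie near the line, whereas Snrpd3 (-0.47 and 0.41) and Srsf2 (0.27 and -0.07) lie in quadrants of opposite sign.

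Marker genes of other cell types were read beside these at ZT16. The 5 smooth muscle and pericyte genes had a median difference of -0.50 with 0 of 5 called, and their summed linear level ranged from 3240 to 8210 in control and from 3190 to 3890 in high-fat mice. Among 9 satellite cell genes Calcr and Sdc4 were called higher, and the summed level was 12000 to 13200 in control and 13700 to 14600 in high-fat mice. Pvalb and Mylpf, genes of mature fibres, were called higher (2 of 9, summed level 774 to 927 against 894 to 1020), as was Mag of 4 Schwann cell genes (663 to 910 against 703 to 849), while 0 of 4 endothelial genes (912 to 1060 against 1210 to 1240), 0 of 4 fibro-adipogenic genes (6180 to 7300 against 6960 to 7600) and 0 of 2 immune genes (563 to 939 against 636 to 651) were called. Counts are of genes past the filter and sums are over all measured genes of a list. Cirbp, the cold-inducible RNA-binding protein gene, picked here after its values were seen, was 1.01 ± 0.20 higher (adjusted p = 0.000822). The part of any of these in the lower levels of splicing factor genes was not tested.

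Averaged over the 6 times, 10 of the 46 splicing factor genes were called, all of them lower on the high-fat diet. Among all genes tested, 11.5% were called on average and 6.80% were called lower. Of the 46 genes, 38 (82.6%) had a negative average difference, where 55.1% of all genes did, but the sizes were small, with a median of -0.05 against -0.01. With the arrays rescaled by cyclic loess, 30 of 46 were negative and 5 were called, and among the 17 hnRNP genes 7 were negative in place of 12. Over the same average, 3 of 9 satellite cell genes, 2 of 9 fibre genes, 2 of 4 fibro-adipogenic genes and 2 of 4 Schwann cell genes were called higher and 1 of 5 smooth muscle and pericyte genes and 1 of 2 immune genes lower, and their part in the result was not tested.

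Sm genes made up 5 of the 10 calls. Snrpg differed by -0.14 ± 0.03 (adjusted p = 0.00292), Snrpf by -0.19 ± 0.06 (0.0191), Snrpd2 by -0.18 ± 0.06 (0.0447), Snrpd3 by -0.14 ± 0.05 (0.0345) and Snrpb by -0.10 ± 0.03 (0.0137). The SR genes Srsf10 (-0.12 ± 0.03, adjusted p = 0.00208) and Srsf3 (-0.08 ± 0.02, 0.0174), which encodes the smallest SR protein, were called, as were Sf3b4 (-0.22 ± 0.05, 0.00574), Sf3b1 (-0.04 ± 0.01, 0.0473) and Hnrnpk (-0.08 ± 0.03, 0.0326), a binder of cytosine-rich RNA. Sf3a1 and Sf3a3, the SF3a genes with the smallest p, differed by -0.11 ± 0.06 (adjusted p = 0.276) and -0.07 ± 0.05 (0.37) and were not called, and Hnrnpc, the next hnRNP gene, differed by -0.06 ± 0.02 (0.059). None of the 4 genes of other U1 or U2 snRNP proteins was called, although all 4 differences were negative, from -0.04 for Snrpc to -0.20 ± 0.10 for Snrpa1 (adjusted p = 0.205).

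Several of these calls depended on the processing. Under cyclic loess Srsf3 (-0.06, adjusted p = 0.0648), Hnrnpk (-0.06, 0.0969), Snrpd3 (-0.12, 0.0674), Snrpd2 (-0.16, 0.0679) and Sf3b1 (-0.02, 0.401) were not called. With the mean of all probe sets of a gene Srsf10 (-0.10, 0.103), Snrpg (-0.10, 0.075), Srsf3 (-0.04, 0.358), Hnrnpk (-0.07, 0.0703) and Sf3b1 (-0.07, 0.0534) were not, and with the second probe set Srsf10 (-0.13, 0.199), Snrpg (-0.07, 0.525), Srsf3 (-0.06, 0.274) and Hnrnpk (-0.05, 0.359) were not. Snrpd3 changed sign with either, to 0.02 and 0.09. Sf3b1 was also not called without the filter (-0.04, adjusted p = 0.0578), without the intensity trend (0.156) and with the replicate block (0.0608). Snrpd2 was not called without the filter (-0.18, 0.0582) and with the replicate block (0.0565).

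**Figure D3:**
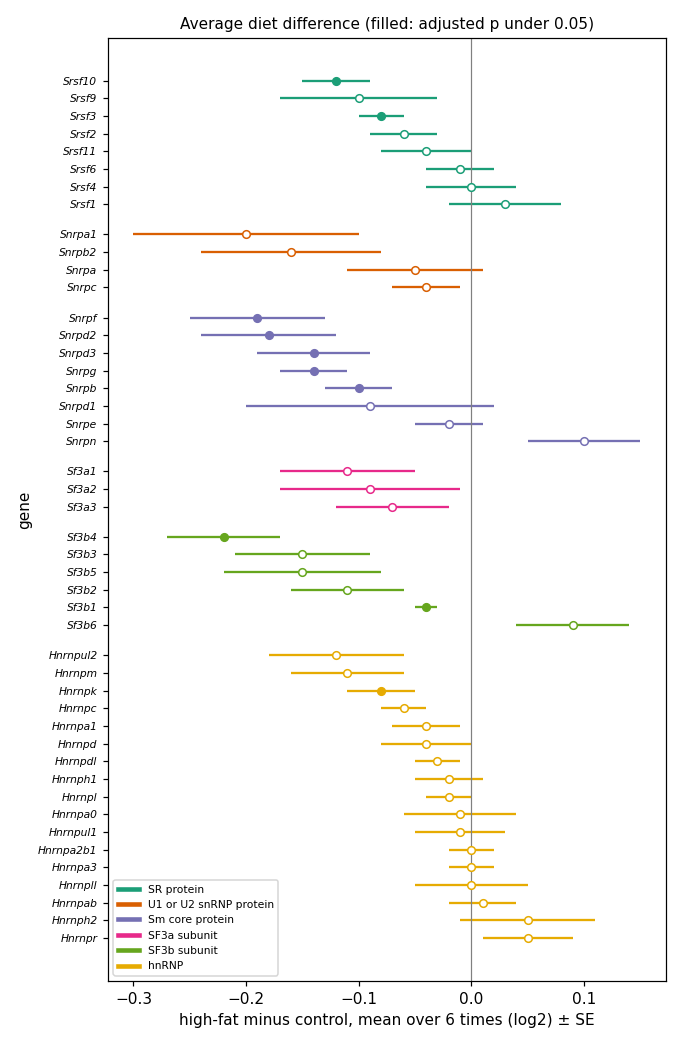
High-fat minus control difference averaged over the 6 times (x axis, log2) for the 46 splicing factor genes (y axis), coloured by role, with bars of 1 SE from limma. Filled points passed an adjusted p of 0.05. All 10 filled points lie left of 0, between -0.22 for Sf3b4 and -0.04 for Sf3b1.

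When all ZT16 arrays were left out, an alternative chosen after seeing the data that also leaves fewer arrays, 2 of 46 genes were called, and of the 10 above only Srsf3 was among them (-0.11, adjusted p = 0.00676). Sf3b1 kept its size of -0.04 (0.104) without its call. The other 8 were nearer to 0 than before and not called, with Srsf10 at -0.06 (0.22), Snrpg at -0.09 (0.109), Sf3b4 at -0.15 (0.0964), Snrpb at -0.06 (0.25), Snrpf at -0.12 (0.27), Snrpd2 at -0.14 (0.217), Snrpd3 at -0.08 (0.398) and Hnrnpk at -0.06 (0.176). With only high-fat ZT16 replicate 3 left out, 6 genes were called. Sf3b1, Snrpd2, Snrpd3 and Hnrnpk lost the call in 32, 22, 10 and 5 of the 47 runs that left out 1 mouse, with adjusted p-values up to 0.0756, 0.0793, 0.0713 and 0.064.

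At the other times few splicing factor genes were called. At ZT0 they were Sf3b1 and Hnrnpl, both lower on the high-fat diet (2 of 46, where 3.56% of all genes were called and 2.23% lower). Sf3b1 read 11.86, 11.88, 11.85 and 11.94 in control mice and 11.74, 11.71, 11.66 and 11.66 in high-fat mice. The groups did not overlap and the difference was -0.19 ± 0.03 (adjusted p = 0.00102), with -0.21 and -0.28 in the other probe sets of the gene. Hnrnpl read 11, 10.93, 11 and 10.89 against 10.78, 10.71, 10.74 and 10.72, a difference of -0.22 ± 0.05 (adjusted p = 0.00911), again with no overlap. The second probe set of Hnrnpl gave -0.18 (adjusted p = 0.552) and the mean of its probe sets -0.20 (0.123), and neither was called. All 6 SF3b differences were negative at ZT0, with a median of -0.21 against -0.03 over all genes, and again at ZT8 (median -0.25) and ZT12 (-0.14), though Sf3b1 at ZT0 was the single call among them at these times. At ZT4 the SF3b median was 0.09 with 5 of 6 above 0, at ZT16 it was -0.02 with 3 of 6 negative and at ZT20 0.03 with 2 of 6 negative. With the second probe sets 5 of 6 SF3b differences were negative at ZT0 (median -0.21) and 4 of 6 at ZT8 (median -0.06) and at ZT12 (-0.21).

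At ZT12, 2 of 46 genes were called, both Sm genes and both lower, where 0.858% of all genes were called and 0.390% lower. Snrpg read 10.23, 10.23, 10.17 and 10.47 against 9.98, 10.03, 10.05 and 9.85, a difference of -0.30 ± 0.08 (adjusted p = 0.0468). Snrpb read 10.93, 10.93, 10.9 and 11.01 against 10.66, 10.66, 10.7 and 10.73, a difference of -0.25 ± 0.06 (adjusted p = 0.0473). Both genes separated the diets completely, as did Snrpf, at 7.84, 7.79, 7.7 and 7.76 against 7.27, 7.43, 7.49 and 6.95 (-0.49 ± 0.13, adjusted p = 0.0667). The groups of Snrpd3 (-0.32 ± 0.11, adjusted p = 0.15) and Snrpd2 (-0.34 ± 0.14, 0.272) did not overlap either, though neither was called. Such separation was counted over all genes only at ZT16. The Sm median was -0.28 against 0 over all genes. The 4 genes of other U1 or U2 snRNP proteins had a median of -0.27 at ZT12, with Snrpb2, a U2 protein gene, at -0.47 ± 0.18 (adjusted p = 0.217), and none was called. The calls were close to the threshold: leaving out single mice gave 0 to 3 calls, Snrpg lost its call in 17 and Snrpb in 25 of 47 such runs, and the second probe set of Snrpg gave 0.09.

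At ZT4, 0 of 46 genes were called, where 0.312% of all genes were (limma; 5 had an unadjusted p under 0.05). Of the 8 Sm differences at ZT4, none was called and all were above 0, though that of Snrpb rounded to 0.00. Their median was 0.19 against 0.01 over all genes. Sf3b6, the SF3b subunit that contacts the branch point adenosine, read 7.61, 7.95, 7.6 and 7.73 in control and 8.15, 8.07, 8.19 and 8.2 in high-fat mice at ZT4, with no overlap, and the difference of 0.43 ± 0.11 (adjusted p = 0.0696) missed the threshold. Snrpe was next, at 0.23 ± 0.08 (adjusted p = 0.193). At ZT8, 0 of 46 genes were called by limma, where 1.78% of all genes were (9 had an unadjusted p under 0.05), and the nearest were Srsf3 (-0.19 ± 0.06, adjusted p = 0.0646) and Snrpb (-0.22 ± 0.06, 0.0687). At ZT20, 0 of 46 were called by limma, where 0.819% of all genes were (2 had an unadjusted p under 0.05), and the nearest were Srsf6 (0.24 ± 0.07, adjusted p = 0.0714) and Srsf3 (-0.11 ± 0.06, 0.356).

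**Figure D4:**
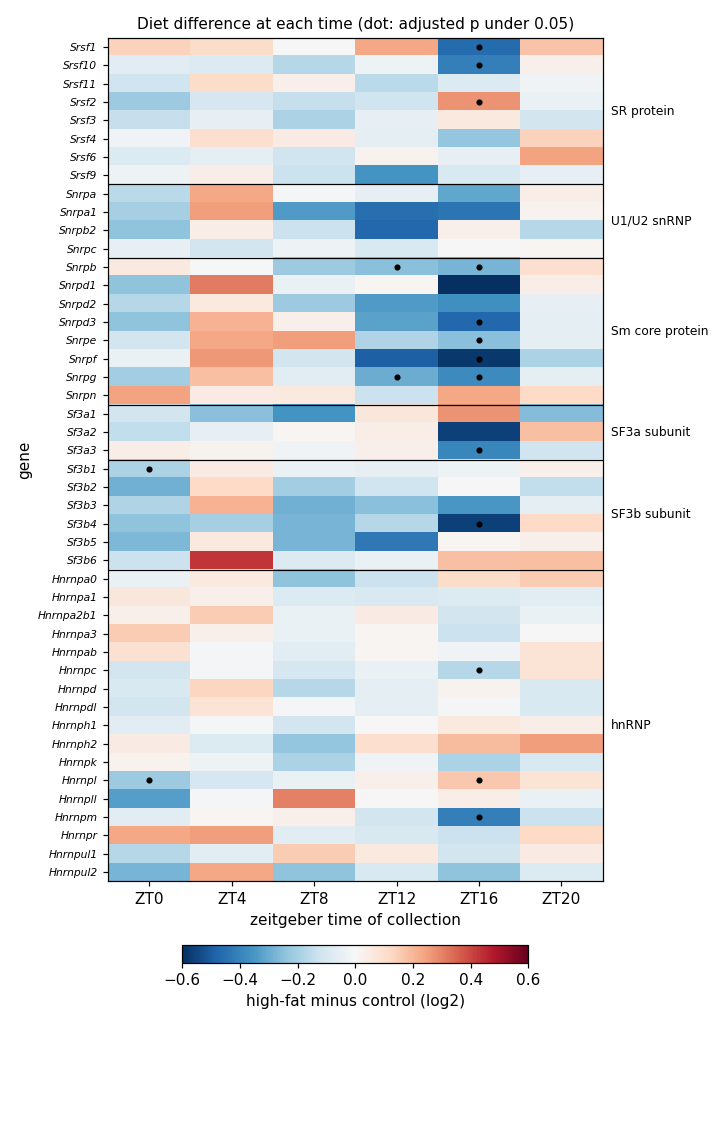
High-fat minus control difference (colour, log2, blue lower and red higher on the high-fat diet) of the 46 splicing factor genes (rows, grouped by role) at the 6 times (columns), with dots where the adjusted p is under 0.05. Most Sm rows, Snrpn excepted at ZT16, turn from red at ZT4 (median 0.19) to blue at ZT12 (-0.28) and ZT16 (-0.38), and 13 of the 17 dots stand in the ZT16 column.

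The change of the diet difference over the day was tested as an interaction of diet and time (F test over 5 coefficients, limma). It passed for 11 of 46 genes, where 12.4% of all genes passed: the Sm genes Snrpe (adjusted p = 0.00573), Snrpb (0.00687), Snrpg (0.00698), Snrpf (0.0213) and Snrpd3 (0.0239), the SR genes Srsf10 (0.0145), Srsf2 (0.0284), Srsf1 (0.045) and Srsf6 (0.0495), and Hnrnpl (0.00453) and Sf3b1 (0.00643). Snrpe ran from 0.23 at ZT4 and 0.25 at ZT8 to -0.18 at ZT12 and -0.25 at ZT16. Its high-fat mice read 10.69, 10.79, 10.62 and 10.7 at ZT8 against 10.44, 10.36, 10.44 and 10.54 in control mice, above all of them, and at ZT12 they read 10.46, 10.36, 10.34 and 10.38 against 10.42, 10.6, 10.51 and 10.74. Hnrnpl ran the other way, from -0.22 at ZT0 to 0.16 at ZT16. None of the 3 SF3a genes and none of the 4 genes of other U1 or U2 snRNP proteins passed.

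Without all ZT16 arrays 3 genes passed this test, Hnrnpl (adjusted p = 0.0488), Snrpe (0.0354) and Sf3b1 (0.023), and Snrpg (0.0513) and Snrpb (0.0533) came close. The number was 6 when only high-fat ZT16 replicate 3 was left out, where Srsf10 (0.0641) and Snrpd3 (0.0606) missed the threshold. Srsf2, Srsf1 and Srsf6 missed it in 5, 17 and 37 of the 47 runs that left out 1 mouse. With the mean of all probe sets Sf3b1 (adjusted p = 0.173 by this F test), Snrpb (0.12), Snrpg (0.166) and Srsf10 (0.142) missed it. So did Snrpd3 (0.23), Srsf2 (0.0513) and Srsf1 (0.241). With the second probe set the same genes missed it (from 0.0836 for Srsf1 to 0.453 for Snrpb and Snrpg), as did Srsf6 (0.406). Snrpe and Snrpf had a single probe set. Srsf6 also missed the threshold under cyclic loess (0.051), without the filter (0.0607), without the intensity trend (0.0753) and with the replicate block (0.0729). Srsf1 missed it without the filter (0.0566) and with the replicate block (0.0718), and Sf3b1 without the intensity trend (0.0673).

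Differences among times were found in 20 of 46 genes on the control diet, where 36.3% of all genes passed, and in 27 of 46 on the high-fat diet, where 40.1% did (F tests over 5 coefficients). They included 9 of 17 hnRNP genes in each diet, and 5 of 8 SR genes in each, Srsf1, Srsf2, Srsf3, Srsf6 and Srsf10. Of the Sm genes 3 of 8 passed on the control diet and 6 of 8 on the high-fat diet, and of the SF3b genes 2 of 6 and 5 of 6. These counts are side by side and their difference between diets is tested only by the interaction above. Group means were lowest at ZT16 for 15 of 46 genes in control mice and for 21 in high-fat mice. They were highest at ZT0 for 20 genes in control mice. In high-fat mice they were highest at ZT4 for 16 genes and at ZT0 for 14. These times were not counted over all genes, so the counts cannot be read as particular to splicing factor genes.

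Among times, Srsf10 had the smallest p of high-fat mice (8.08e-10, adjusted). Its high-fat means were 10.98 ± 0.11 (SD, n = 4) at ZT0, 10.58 ± 0.04 at ZT4, 10.80 ± 0.06 at ZT12, 10.21 ± 0.07 (n = 3) at ZT16 and 10.83 ± 0.18 at ZT20, and its control means fell between 10.62 at ZT16 and 11.05 at ZT0 (adjusted p = 2.27e-05). In both diets the gene was highest at ZT0 and lowest at ZT16, with a span of 0.77 on the high-fat diet and 0.43 on the control diet. Srsf1 had the same extremes on the high-fat diet, with 9.59, 9.9, 9.65 and 9.61 at ZT0 and 8.6, 8.31 and 8.62 at ZT16 (adjusted p = 4.88e-07), and on the control diet it was highest at ZT0 at 9.55 ± 0.17 (SD, n = 4; adjusted p = 0.00173). Srsf6 had the smallest p on the control diet (7.87e-08): its mice read 10.83, 10.89, 10.82 and 10.79 at ZT8 and 10.21, 10.21, 10.1 and 10.26 at ZT20, where all 4 lay below every other control mouse.

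Among hnRNP genes, Hnrnpa0, whose product binds AU-rich elements, read 9.57, 9.26, 9.21 and 9.29 at ZT8 and 8.54, 8.66, 8.5 and 8.25 at ZT16 in control mice (adjusted p among times = 9.68e-07). Hnrnpa2b1, a reader of RNA export and sorting signals, was highest at ZT0 (10.57 ± 0.11, SD) and lowest at ZT4 (10.15 ± 0.11) on the control diet (6.76e-07) and lowest at ZT16 (10.17 ± 0.04) on the high-fat diet (1e-06). Hnrnpk read 10.11, 10.36 and 10.15 at ZT16 and 10.84, 10.92, 10.76 and 10.91 at ZT0 on the high-fat diet (2.67e-07). On the control diet Hnrnpl (3.11e-06), Hnrnpk (7.43e-06), Hnrnpd (9.4e-06), Snrpb (0.00026), Srsf3 (0.00102), Sf3b3 and Sf3b1 (both 0.00343) followed, and on the high-fat diet Hnrnpr (1.05e-05), Snrpg (1.48e-05), Hnrnpa3 (3.14e-05), Snrpd3 (7.61e-05), Hnrnpl (0.0004), Snrpe (0.000402), Hnrnpa0 (0.000878) and Hnrnpm (0.00166). With time and collection day confounded, none of these differences can be told apart from a difference between days. With the second probe set Hnrnpl (adjusted p = 0.26), Snrpb (0.0536) and Srsf1 (0.0529) missed the F test among times on the control diet. So did Hnrnpa2b1 (0.133) and Snrpg (0.148) on the high-fat diet. The second probe set of Hnrnpa2b1, with a mean of 10.39 against 10.41 for the first, correlated with it at -0.07. Hnrnpd missed the control test with the mean of all probe sets (0.112), and Sf3b1 without the intensity trend (0.0547).

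**Figure D5:**
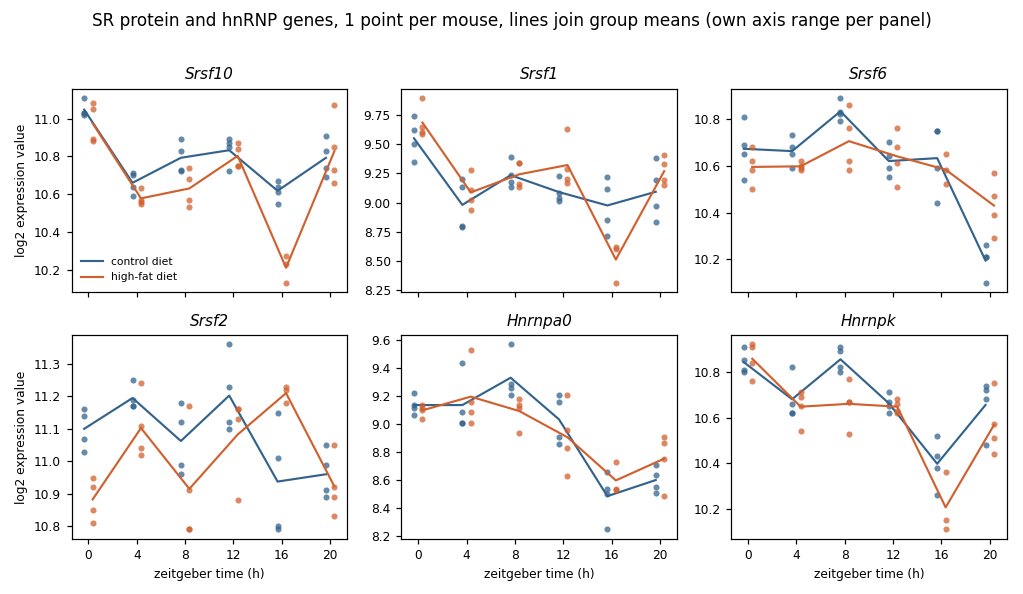
Log2 expression value (y axis, own range in each panel) against zeitgeber time in hours (x axis) for 4 SR and 2 hnRNP genes, 1 point per mouse, with lines joining group means for the control diet (blue) and the high-fat diet (orange). Srsf10, Srsf1 and Hnrnpk are lowest at ZT16 on the high-fat diet (means 10.21, 8.51 and 10.21), and Srsf6 is lowest at ZT20 on the control diet (10.19).

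A 24 h cosine was fitted within each diet to ask which genes followed a smooth daily curve (F test over 2 coefficients; the amplitude is the distance from the mean to the peak). On the control diet 6 of 46 genes passed, where 10.5% of all genes did, and on the high-fat diet 12 of 46, where 16.9% did. On the control diet Hnrnpa0 had an amplitude of 0.40 ± 0.05 and a peak at 5.79 h after ZT0 (adjusted p = 2.19e-06), Srsf6 of 0.21 ± 0.04 with a peak at 7.55 h (0.000616) and Snrpb of 0.15 ± 0.03 with a peak at 11 h (0.00184). Snrpc, a U1 protein gene (0.13 ± 0.03, 0.0176), Hnrnph2 (0.22 ± 0.06, 0.0182) and Hnrnpk (0.16 ± 0.04, 0.0312) also passed.

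On the high-fat diet 6 of the 12 were Sm genes, with fitted peaks between 1.67 and 5.52 h. Snrpd3 had an amplitude of 0.32 ± 0.05 and a peak at 4.97 h (adjusted p = 4.57e-05), Snrpd1 of 0.49 ± 0.12 at 3.44 h (0.00823), Snrpf of 0.27 ± 0.06 at 1.67 h (0.00837), Snrpd2 of 0.24 ± 0.06 at 3.79 h (0.0161), Snrpe of 0.18 ± 0.04 at 5.52 h (0.00178) and Snrpg of 0.15 ± 0.05 at 3.85 h (0.0453). The others were Hnrnpr (0.30 ± 0.05, 3.61e-05), Hnrnpa0 (0.29 ± 0.05, 0.000783, peak at 4.56 h), Hnrnpa3 (0.13 ± 0.03, 0.00205), Hnrnpk (0.18 ± 0.04, 0.0102), Sf3b3 (0.28 ± 0.07, 0.0148) and Sf3a3 (0.18 ± 0.05, 0.0366). With the collection day as a random block, 3 genes passed in control and 6 in high-fat mice, and of the Sm genes only Snrpd3 (adjusted p = 0.00387) and Snrpe (0.0358) then passed on the high-fat diet. Snrpd1 (0.0836), Snrpf (0.0679), Snrpd2 (0.124), Snrpg (0.165), Sf3b3 (0.0923) and Sf3a3 (0.2) did not, nor did Snrpc (0.168), Hnrnph2 (0.186) and Hnrnpk (0.0997) on the control diet. Of the 47 runs that left out 1 mouse, Snrpg lost its high-fat call in 13, Sf3a3 in 9, Hnrnpk in 2 and Snrpd2 in 1 (without high-fat ZT16 replicate 1, 0.0579), and Hnrnpk lost its control call in 4. With the second probe set the control calls of Snrpc (0.878), Hnrnpk (0.348) and Snrpb (0.0883) were lost. So were the high-fat calls of Snrpd3 (0.13), Hnrnpk (0.3), Sf3b3 (0.0815), Sf3a3 (0.507) and Snrpg (0.705). With the mean of all probe sets Snrpc (0.212) and Hnrnpk (0.0718) lost their control calls, and Sf3a3 (0.187) and Snrpg (0.286) their high-fat calls. Snrpd1, Snrpd2, Snrpe and Snrpf had a single probe set. Without all ZT16 arrays, chosen after seeing the data and with fewer arrays, Snrpc (0.102), Hnrnph2 (0.0988) and Hnrnpk (0.488) missed the control cosine test. Hnrnpa3 (0.0538), Hnrnpk (0.391), Sf3b3 (0.131), Snrpd2 (0.153), Sf3a3 (0.326) and Snrpg (0.15) then missed the high-fat one. The amplitude of Hnrnpk was 0.07 in control and 0.08 in high-fat mice without these arrays. The other cosine calls were kept.

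The 24 h curve itself differed between the diets for 4 of 46 genes, where 2.11% of all genes passed: Snrpb (adjusted p = 0.0165), Snrpf (0.021), Hnrnpl (0.0212) and Snrpe (0.0247). Snrpb had its control curve highest at 11 h, and its high-fat amplitude of 0.06 ± 0.03 did not pass (adjusted p = 0.289). Snrpf and Snrpe had fitted peaks at 17.2 and 15.8 h on the control diet, where neither passed the cosine test, and at 1.67 and 5.52 h on the high-fat diet. Hnrnpl passed the cosine test in neither diet (amplitudes 0.08 and 0.09). Without all ZT16 arrays 0 of 46 genes passed this test of limma, with Snrpb nearest (adjusted p = 0.0697), and 1 passed when a common 24 h curve stood in for the time factor. The genes that missed it with the common curve were Snrpf (0.072), Hnrnpl (0.151) and Snrpe (0.0574). Snrpe missed the threshold without high-fat ZT16 replicate 1 (0.0569) or 3 (0.0563). Snrpb missed it with the mean of all probe sets (0.157) and with the second probe set (0.449), and Hnrnpl with the second (0.0532). Snrpf and Snrpe had a single probe set.

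Within groups, the highest median correlation among the roles was that of the Sm genes. After group means were removed, the median correlation over the 47 arrays was 0.24 for the 28 pairs of Sm genes, 0.10 for the 28 pairs of SR genes, 0.05 for all 1035 pairs of splicing factor genes and 0.01 for pairs of these with all genes tested. These are descriptions over arrays that share processing, and no test was made.

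Genes that work with these proteins were counted in lists, to be read against the shares of all genes given above: on average 11.5% were called and 6.80% lower (median -0.01), and at ZT16 13.3% were called and 7.13% lower (median -0.02). For assembly of the Sm ring, 9 of 13 genes were tested, and Prmt5, the arginine methyltransferase that modifies Sm proteins before assembly, was lower on average (-0.34 ± 0.08, adjusted p = 0.00276) and at ZT16 (-0.58 ± 0.20, 0.0463). At ZT16 the median of this list was -0.36, and 2 of 9 were called lower, Prmt5 and, chosen after its values were seen, Gemin7 (-0.46 ± 0.12, 0.00773). At ZT4, where 0.312% of all genes were called, 1 of the 9 was called higher, Gemin6 (0.40 ± 0.08, 0.0229), a time chosen after its values were seen. The list's median was -0.23 at ZT0, 0.08 at ZT4 and 0.16 at ZT20. The other genes of this list with small p on average, Wdr77 (-0.16, adjusted p = 0.186), Gemin6 (0.07, 0.196) and Gemin5 (-0.10, 0.309), were not called. Wdr77, the partner of Prmt5, was at -0.44 ± 0.21 (adjusted p = 0.157) at ZT16, and Smn1, the survival motor neuron gene, also chosen after its values were seen, at -0.36 ± 0.18 (0.174). Among 14 tested snRNP and LSm partners, Snrnp40 (-0.27 ± 0.07, 0.0104), Phf5a (-0.11 ± 0.03, 0.0317) and Snrnp35 (-0.21 ± 0.07, 0.0431) were lower on average, while Lsm7 was not called (0.14 ± 0.05, 0.0603). At ZT16 Lsm7 was higher (0.42 ± 0.13, 0.0291), and 2 were lower, Snrnp40 (-0.53 ± 0.18, 0.0498) and, chosen after its values were seen, Lsm8 (-0.66 ± 0.19, 0.0151).

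Of 29 tested genes of the spliceosome core, 5 were lower and 1 higher on average. Prpf18 (-0.30 ± 0.07, adjusted p = 0.00251), Prpf19 (-0.23 ± 0.07, 0.0187), Sart1 (-0.14 ± 0.04, 0.019) and Crnkl1 (-0.22 ± 0.06, 0.0195) had the smallest p, and Cdc5l was also lower (-0.15, 0.0256) and Aqr higher (0.15, 0.0263). Prpf19, a ubiquitin ligase of the active spliceosome, was -0.84 ± 0.17 at ZT16 (0.000977), where 3 of the 29 were called lower, with Cdc5l (-0.39) and Prpf8 (-0.26), and 0 higher; Cdc5l, Aqr and Prpf8 were chosen after their values were seen. The count of 3 of 29, all lower, lies between the shares of all genes called lower (7.13%) and called either way (13.3%) at ZT16. Of 31 other splicing regulators 3 were lower and 1 higher on average, Pcbp1 (-0.12 ± 0.03, 0.0118), Ptbp1 (-0.11 ± 0.03, 0.0163) and Rnps1 (-0.16 ± 0.05, 0.0484) against Taf15 (0.14 ± 0.03, 0.00619), and 3 were lower and 1 higher at ZT16. These were Rnps1 (-0.52 ± 0.14, 0.0111), Celf1 (-0.30 ± 0.09, 0.0247) and Luc7l3 (-0.38 ± 0.06, 3.97e-05), an SR-related gene, against Tia1 (0.36 ± 0.10, 0.01), of which the last 3 were chosen after their values were seen. These counts of 4 of 31 are near the shares of all genes called, and the list's median was -0.01 both times. Of 10 kinases and phosphatases that act on SR proteins 0 were called on average by limma, 2 with an unadjusted p under 0.05, Prpf4b (-0.12 ± 0.04, adjusted p = 0.0662) and Clk1 (-0.04 ± 0.02, 0.111), while Srpk3 was at -0.08 (0.272). Srpk2, an SR protein kinase, was at -0.09 on average (0.211) and was higher at ZT16 (0.39 ± 0.12, 0.0252).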

How the data were processed

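RNA of muscle stem cells of 47 mice was measured on Affymetrix arrays; per the labels' protocols, cDNA was made from 25 ng of total RNA with 17 cycles of amplification and 8 µg of it was labelled. Each probe set has 1 deposited log2 value per array, for which the submitters' processing notes name RMA, with its version and settings not given in the sources used. Arrays have no read depth, and their number limits the precision. Array medians lay between 5.86 and 5.94, and no 2 arrays were identical.

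Of 45141 probe sets, the platform annotation gave 1 gene symbol to 28898, none to 15692 and several to 551; the latter kinds were named for no gene, which left out 8 probe sets that share a symbol of these families. Symbols were updated through gene identifiers (28689 matched), which changed no member. The brightest probe set per gene was kept, and genes under the 40th percentile of means were left out, leaving 10258. Differences were tested with R 4.3.3 and limma 3.58.1 (lmFit, eBayes with an intensity trend, two-sided), over all arrays, and p-values were adjusted by Benjamini-Hochberg over the 10258 genes, with calls at 0.05. The models were tested on simulated data. Replicates are called biological replicates by the labels.

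The members, gene lists and tests were chosen with earlier results of these data known. Each comparison names the genes past the threshold, up to 12 by smallest p, or otherwise the 2 with the smallest p; each family the 2, and each list up to 4, with the smallest p for the average difference. Further genes and times are named where said or where a result turns on them. A rule to name the highest and lowest levels was not used, because levels of different probe sets cannot be compared.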

Additional observations from a re-analysis of the deposited data

Results flagged for a closer look

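Among 319 groups of 4 mice examined for 29 named genes, 9 held 1 mouse far from the other 3, where chance gives about 1 in 20 groups. The mouse was above its group for Hnrnpa2b1 in control ZT12 replicate 4 (10.62 against 10.5 to 10.51), Hnrnpk in control ZT4 replicate 2 (10.82 against 10.62 to 10.66), Snrpb in control ZT4 replicate 1 (10.86 against 10.75 to 10.76) and Srsf10 in control ZT0 replicate 4 (11.11 against 11.02 to 11.03). It was below its group for Sf3b3 in control ZT4 replicate 3 (8.34 against 8.9 to 8.97), Snrpd2 in high-fat ZT8 replicate 3 (8.98 against 9.58 to 9.7), Snrpd1 in high-fat ZT4 replicate 3 (7.68 against 7.9 to 7.92), Hnrnpr in high-fat ZT20 replicate 3 (8.98 against 9.18 to 9.18) and Srsf2 in high-fat ZT12 replicate 3 (10.88 against 11.13 to 11.16).

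The diet difference changed over the day for 11 genes by the interaction test of limma: Hnrnpl (adjusted p = 0.00453), Snrpe (0.00573), Sf3b1 (0.00643), Snrpb (0.00687), Snrpg (0.00698), Srsf10 (0.0145), Snrpf (0.0213), Snrpd3 (0.0239), Srsf2 (0.0284), Srsf1 (0.045) and Srsf6 (0.0495). The 24 h cosine differed between the diets for Snrpb (0.0165), Snrpf (0.021), Hnrnpl (0.0212) and Snrpe (0.0247).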

How the results depend on the processing

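Counts below are of the 46 splicing factor genes. Leaving out each mouse in turn gave 6 to 11 calls for the average diet difference (10 with all mice), 2 to 2 at ZT0, 0 to 0 at ZT4, 0 to 1 at ZT8, 0 to 3 at ZT12, 5 to 14 at ZT16, 0 to 1 at ZT20, 6 to 12 for the change over the day, 16 to 22 and 23 to 28 for differences among times on the control and high-fat diets, 5 to 7 and 8 to 13 for the cosine, and 3 to 5 for its difference between diets. Cyclic loess gave 5 calls for the average and 1 at ZT20. The mean of all probe sets gave 1 call at ZT8, 0 at ZT12, 7 at ZT16, 6 for the change over the day and 10 for the control cosine. The second probe set gave 4 at ZT0, 1 at ZT8, 0 at ZT12, 7 at ZT16, 7 for the change over the day and 2 for the difference of the cosine. In that setting genes without another probe set kept their first. Array weights gave 3 at ZT8, 1 at ZT12, 20 at ZT16 and 7 for the difference of the cosine. ZT12 gave 0 calls without the filter, without the intensity trend and with the replicate block. Leaving out all ZT16 arrays, chosen after seeing the data, gave 2 calls for the average, 3 for the change over the day and 0 for the difference of the cosine; a common 24 h curve in place of the time factor gave 1 there, and the collection day as a random block gave 3 and 6 for the control and high-fat cosine.

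Values of the named genes changed sign with the mean of all probe sets and with the second probe set, and under no other setting run: with the mean of all probe sets for Snrpd3 on average (0.02) and at ZT16 for Srsf2 (-0.11) and Hnrnpc (0.01), and at ZT20 for Srsf3 (0.09); with the second probe set for Snrpd3 on average (0.09) and at ZT16 (0.41), Snrpg at ZT12 (0.09) and Srsf2 at ZT16 (-0.07). Signs over all members moved under cyclic loess too, with 30 of 46 average differences negative (38 as deposited) and 7 of 17 of the hnRNP genes (12 as deposited; median 0 in place of -0.02). The cause of these changes was not tested. Same-numbered mice of the diets did not pair (23 pairs, median correlation of their deviations -0.00625, 1 over 0.1); with the replicate block the average gave 8 calls, ZT16 10 and the change over the day 9.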
